A study of Mus musculus with 6 samples.

Results

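Collagens are secreted or membrane-anchored proteins whose chains wind into a triple helix, and the mouse genome encodes each chain in a separate gene. The collagen genes described here were chosen by symbol alone, as every gene named Col followed by a type number, the letter a and a chain number. The rule found 44 genes among the 31617 in the deposited table. They fall into 11 fibrillar chains, 6 type IV chains of basement membranes, 6 type VI chains of beaded filaments, 9 fibril-associated chains, 2 multiplexins, 3 short-chain network collagens, 4 membrane-spanning collagens and 3 others. Col21a1 was not analysed here.

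The study followed wild type Balb/c mice after injury of the exocrine pancreas by caerulein, a peptide that overstimulates the enzyme-secreting acinar cells and is used to induce acute pancreatitis. The 5 caerulein groups were taken on days 1, 3, 4, 5 and 7, counted from the first of a run of hourly intraperitoneal injections, and the mock group, called day 0, received saline injections. The sample titles name the model RAP and the design text calls it acute pancreatitis; the day 4 group appears in the titles but not in that text. Leukocytes of each pancreas were enriched on CD45.2 magnetic beads, and CD45+CD11b+F4/80+ cells were sorted as macrophages. Each group is 1 RNA-seq library made from a pool of more than 3 mice, so no difference between single days could be set against the variation between animals or sorts. The labels name neither age nor sex.

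Fibrillar collagens such as types I and III form the tensile fibres of scars and stroma, type IV forms the sheet-like network beneath epithelia and around vessels, and type VI forms fine filaments near cell surfaces. In the pancreas the main producers of fibrillar collagen are fibroblasts and stellate cells, while macrophages are better known for taking up and degrading collagen and for signals that act on those producers. New chains are hydroxylated and folded in the endoplasmic reticulum, trimmed by procollagen proteinases outside the cell and cross-linked by lysyl oxidases.

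The deposited values are read counts divided by 1 factor per library, called normalised reads below, and the 6 libraries held between 14853084 and 25726455 reads. The macrophage markers behind the sort were abundant in every library: Ptprc (CD45) ran between 7282 and 12626 normalised reads, Adgre1 (F4/80) between 9671 and 23702, and the expressed Itgam (CD11b) row between 678 and 2627. Acinar enzymes were present too, and 9 of them summed to 600939 normalised reads in mock and 50482, 90889, 33805, 29694 and 729512 on days 1, 3, 4, 5 and 7. The mock and day 7 libraries therefore stand apart from the other 4 in acinar transcripts, and results against mock are also given below against the mean of days 1, 4 and 5. In all, 40118 reads fell on collagen genes. Differences are log2 ratios with 17.8 normalised reads added to each value, which understates the ratios of low genes. They were counted at 2-fold, among genes with at least 60 reads over all 6 libraries: 14106 genes, 28 of them collagens. Intervals in brackets are 95% Clopper-Pearson intervals of ratios or shares without that addition. They cover counting error only, since each group is 1 library. Copies of 1 molecule made by PCR cannot be recognised in these reads, so the intervals can be too narrow even for that error.

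The promoter windows of 3 collagens are shown first, because Col1a2 and Col3a1 were highest on day 3 and Col6a1 was highest on day 7. They are the 250 bases before the annotated start, from RefSeq on GRCm38.p6 (a C57BL/6J genome, whereas the mice were Balb/c), written 5′ to 3′ on the gene's strand. Capitals mark the CCAAT box, the TATA box written as TATAAA and the GC box written as GGGCGG, each searched on both strands. Col1a2 (chr6:4505368-4505617, plus strand) and Col3a1 (chr1:45311288-45311537, plus strand) are fibrillar chains, and Col6a1 (chr10:76726045-76726294, minus strand) is a type VI chain.
Col1a2: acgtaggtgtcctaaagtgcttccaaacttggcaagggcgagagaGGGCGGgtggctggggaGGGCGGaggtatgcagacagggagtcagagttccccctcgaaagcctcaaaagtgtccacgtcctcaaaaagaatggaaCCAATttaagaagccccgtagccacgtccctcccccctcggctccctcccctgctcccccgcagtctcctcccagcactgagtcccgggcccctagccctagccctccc
Col3a1: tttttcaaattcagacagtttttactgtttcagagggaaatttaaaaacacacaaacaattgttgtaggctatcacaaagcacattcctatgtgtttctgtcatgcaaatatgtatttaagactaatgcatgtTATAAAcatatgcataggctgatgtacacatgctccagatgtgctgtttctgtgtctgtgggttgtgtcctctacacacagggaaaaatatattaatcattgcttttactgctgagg
Col6a1: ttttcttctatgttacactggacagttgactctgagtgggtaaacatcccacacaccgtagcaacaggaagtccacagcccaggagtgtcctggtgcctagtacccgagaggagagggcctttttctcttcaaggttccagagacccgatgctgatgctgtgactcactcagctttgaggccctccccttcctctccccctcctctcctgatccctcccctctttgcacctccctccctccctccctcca

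The Col1a2 window holds CCAAT 109 bases before the start and GGGCGG 205 and 188 bases before it, the Col3a1 window holds TATAAA 117 bases before the start, and the Col6a1 window holds none of these letters. Windows were found for 35 of the 44 collagens, 38 in all. CCAAT was in 13 of these 38, TATAAA in 5 and GGGCGG in 22. Of all 32851 promoter windows of that length, 33.8% held CCAAT, 12.4% TATAAA and 32.7% GGGCGG. A match of letters is a description and was not tied to any difference between libraries. Several collagens are neighbours in the RefSeq gene table: Col3a1 and Col5a2, Col6a1 and Col6a2, Col4a3 and Col4a4, and Col4a1 and Col4a2. The annotated starts of Col4a1 and Col4a2, which lie on opposite strands, are 21 bases apart, and the transcripts share 22 bases there.

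Collagen reads were scarcest on days 1 and 4 and most frequent on days 3 and 7. Per 1000000 reads the 44 genes took 166 (161 to 173) in mock and 36.2 (33.3 to 39.2), 891 (880 to 903), 56.0 (52.3 to 59.95), 118 (113 to 123) and 656 (644 to 669) on days 1, 3, 4, 5 and 7. The counting intervals of the 6 libraries do not overlap. Of all collagen reads, 67.5% came from the type I chains Col1a1 and Col1a2 and the type III chain Col3a1. Because the samples are bulk RNA, fewer collagen-expressing cells and less collagen RNA per cell cannot be told apart.

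**Figure D1:**
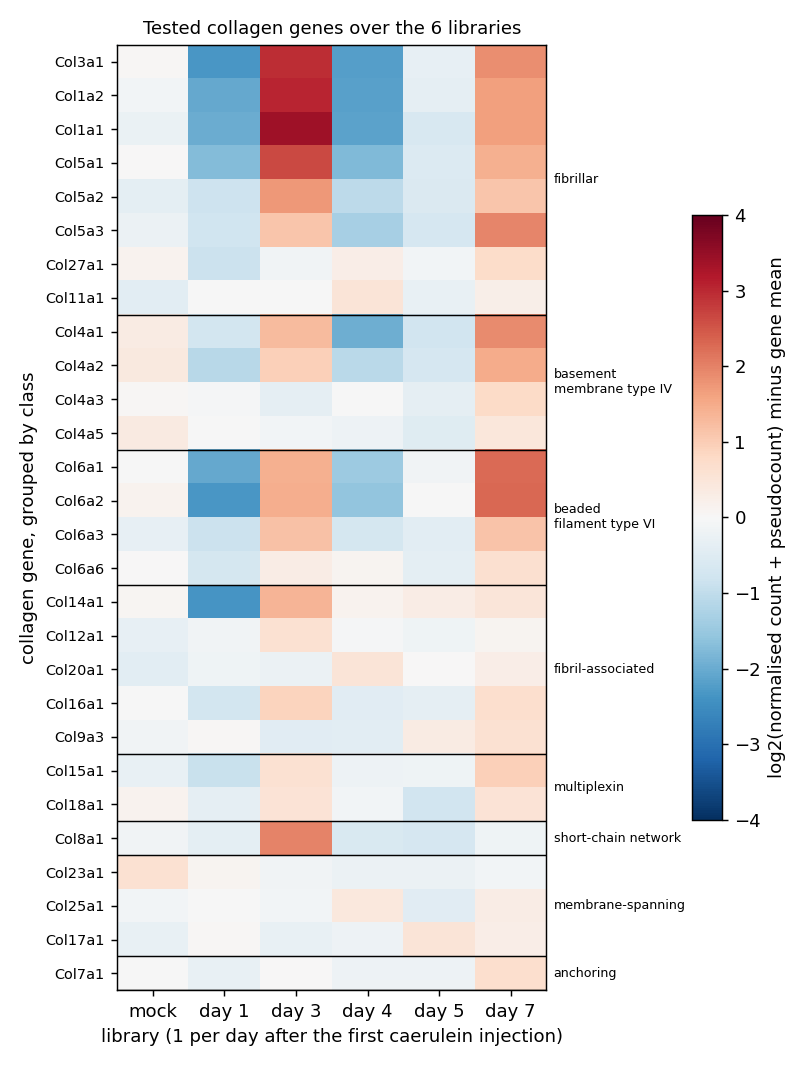
Log2 of normalised reads plus 17.8, minus the gene's mean over the 6 libraries, for the 28 collagen genes with at least 60 reads. Rows are genes by class, and columns are mock and days 1, 3, 4, 5 and 7, 1 library per column. In ratios to mock, which the colours do not show, 11 genes on day 3 and 12 on day 7 were at 2-fold or more above it. On days 1 and 4, 9 genes each were at 2-fold or more below it.

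On day 3, 11 of 28 collagens were at least 2-fold above mock, against 3.77% of all genes, and 0 were as far below it, against 5.82%. On day 7 these counts were 12 (2.85% of all genes) and 0 (5.47%). The low days ran the other way. On day 1, 0 collagens were 2-fold above mock (5.47% of all genes) and 9 were below it (10.6%), and on day 4 the counts were 0 (3.08%) and 9 (8.16%). On day 5 the counts were 0 (3.01%) and 2 (7.29%), a share close to that of all genes, and the 2 below mock were the basement membrane chains Col4a1 and Col4a2. These counts depend on the pseudocount: with 4.44 in place of 17.8, 19 collagens were higher on day 7 and 6 lower on day 5, and with 71.0 0 were lower on day 5. The median collagen log2 ratio against mock was -0.55, 0.91, -0.42, -0.30 and 0.71 on days 1, 3, 4, 5 and 7, and over all genes it was 0.03, 0.04, -0.02, 0.04 and -0.05. These 5 comparisons share the 1 mock library. They also share the filter, which sums reads over all 6 libraries, so a collagen can enter through the library where it was high. Col8a1 had 162 reads on day 3 and 13 in mock. With day 3 left out of that sum, 21 collagens and 13446 genes were kept, and with day 7 left out 21 and 13389. The filter thus bears more on the collagens than on all genes, and the shares set beside them are a description. Against the mean of days 1, 4 and 5 in place of mock, 14 collagens were at least 2-fold higher on day 3 and 13 on day 7, and 0 were lower on either day. Those 3 libraries held the fewest collagen reads and were chosen after the data were seen, so this reference raises the ratios and is no check of the counts against mock.

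Between successive libraries the counts lay on 1 side each time. On day 3, 15 of 28 were at least 2-fold above day 1 (11% of all genes) and 0 below it (7%). On day 4, 0 were above day 3 (3.2%) and 14 were below it (6.61%). On day 5, 7 were above day 4 (4.35%) and 0 below it (3.26%). On day 7, 16 were above day 5 (7.93%) and 0 below it (3.69%). The highest of the 6 libraries was day 3 for 10 collagens (19.1% of all genes) and day 7 for 13 (19.8%). It was day 4 for 3 (14.3%), mock for 1 (6.55%), day 5 for 1 (15.3%) and day 1 for 0 (25%). The lowest library was day 1 for 11 collagens (23.4% of all genes), day 4 for 7 (16.9%) and day 5 for 5 (8.34%). It was mock for 4 (6.9%), day 3 for 1 (15.4%) and day 7 for 0 (29.1%).

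Among fibrillar chains, 6 of 8 were at least 2-fold above mock on day 3 and 6 of 8 on day 7. Col3a1 (ENSMUSG00000026043), the type III chain of pliable and early repair tissue, had 959 normalised reads in mock and 171, 7376, 191, 751 and 3443 on days 1, 3, 4, 5 and 7. It was highest on day 3 and lowest on days 1 and 4, with day 5 near mock. Its ratio was 7.69-fold on day 3 over mock (log2 interval 2.85 to 3.04) and 3.59-fold on day 7 over mock (1.74 to 1.95).

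Col1a2 (ENSMUSG00000029661), the α2 chain of type I, had 294 normalised reads in mock and 62.8, 2725, 55.6, 244 and 1010.2 on days 1, 3, 4, 5 and 7. Col1a1 (ENSMUSG00000001506), the α1 chain of type I, the main protein of scar fibres, had 183 in mock and 43.1, 2512, 36.2, 135 and 721 on the same days. Both kept the order of Col3a1 at the top, with day 3 above day 7, day 7 above mock and mock above day 5. On day 7 over mock the ratios were 3.43-fold for Col1a2 (1.60 to 1.97 on the log2 scale) and 3.93-fold for Col1a1 (1.75 to 2.21). On day 3 over mock they were 9.26-fold for Col1a2 (3.04 to 3.38) and 13.7-fold for Col1a1 (3.57 to 3.99), so within this library the α1 chain was further from mock than the α2 chain.

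Type V chains join type I fibrils and limit their diameter. Col5a1, its main chain, had 80.2 normalised reads in mock and 11.1, 582, 10.4, 47.8 and 239.9 on days 1, 3, 4, 5 and 7. Col5a2, its partner, had 34.4 in mock and 20.9, 213, 15.5, 28.1 and 131 on these days. Both followed type I in being highest on day 3. Col5a3, a less widespread type V chain, had 22.9 in mock and 9.85, 87.3, 1.29, 12.5 and 169.8 on days 1, 3, 4, 5 and 7, and so was highest on day 7. Its day 7 ratio over mock was 7.41-fold (2.27 to 3.56 on the log2 scale), against 3.81-fold on day 3 (1.29 to 2.63), and the day 4 value is 1 read.

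The other fibrillar chains were low. Col27a1, a cartilage-associated chain, had 29.6 normalised reads in mock and 6.15, 21.1, 33.6, 21.8 and 54.1 on days 1, 3, 4, 5 and 7. Col11a1, a minor fibril chain best known from cartilage, had 2.86 in mock and 9.85, 9.86, 22.0, 5.20 and 15.2 on days 1, 3, 4, 5 and 7. With 17.8 added to each value, neither passed 2-fold against mock on any day. Without that addition, Col11a1 on day 4 and Col27a1 on day 1 lie further from mock than that. Neither was highest on day 3.

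**Figure D2:**
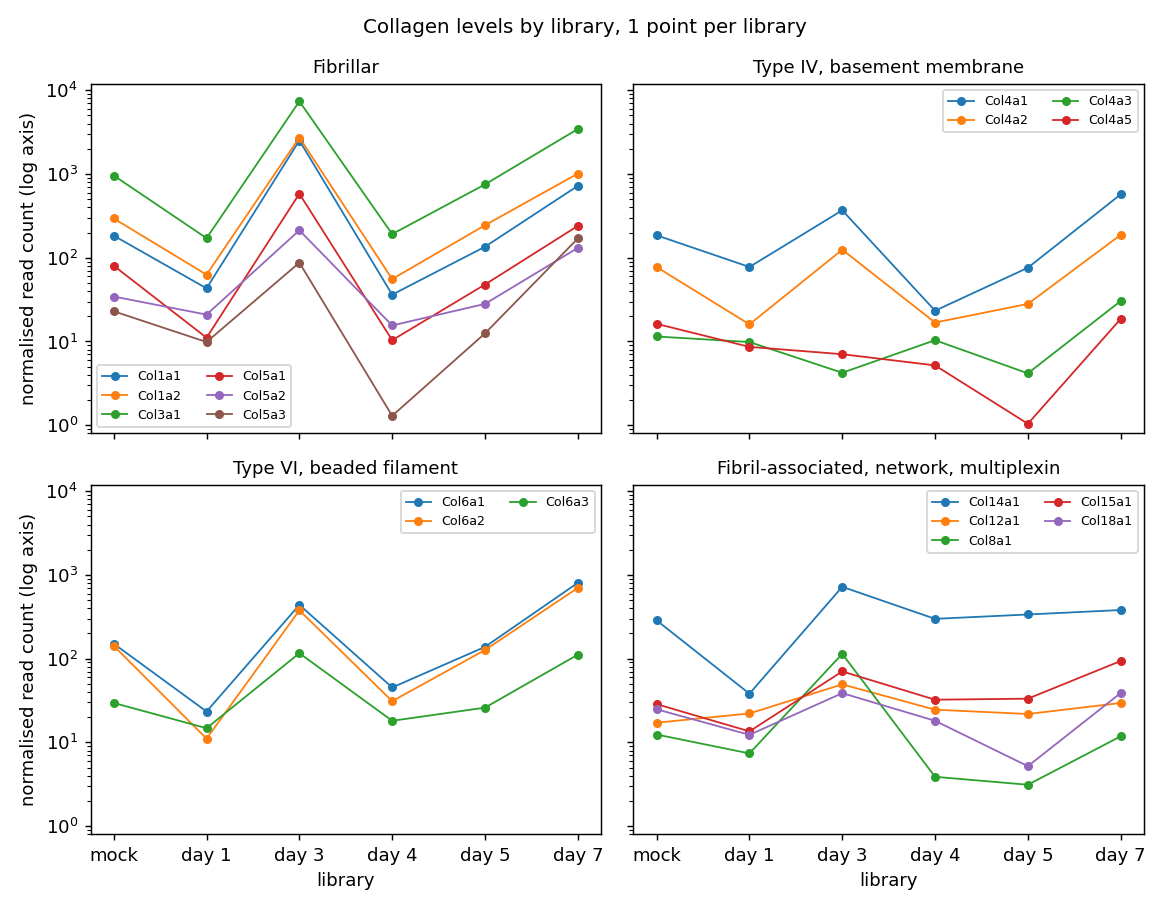
Normalised read count (log axis) of named collagens in the mock, day 1, day 3, day 4, day 5 and day 7 libraries, 1 point per library, in 4 panels by class. Col3a1, Col1a2, Col1a1, Col5a1 and Col5a2 peak on day 3, whereas Col6a1, Col6a2, Col4a1, Col4a2 and Col5a3 are highest on day 7.

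Type VI chains were highest on day 7 more often than on day 3. Col6a1, the α1 chain, had 151 normalised reads in mock and 23.4, 439, 45.3, 138 and 804 on days 1, 3, 4, 5 and 7. Col6a2, the α2 chain that assembles with it, had 142 in mock and 11.1, 378, 31.1, 127 and 700.2 on the same days. Day 7 was the highest library for both, day 3 the next, and day 5 lay close to mock. On day 7 over mock the ratios were 5.33-fold for Col6a1 (2.17 to 2.67 on the log2 scale) and 4.92-fold for Col6a2 (2.05 to 2.56). On day 3 over mock they were 2.91-fold for Col6a1 (1.29 to 1.80) and 2.66-fold for Col6a2 (1.15 to 1.68).

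Col6a3, the long α3 chain of the same filament, had 29.6 normalised reads in mock and 14.8, 116, 18.1, 26.0 and 111 on days 1, 3, 4, 5 and 7, so that days 7 and 3 were nearly equal. Col6a6, an alternative chain, had 11.5 in mock and 0, 17.6, 12.9, 4.16 and 27.0 on these days. With 17.8 added to each value, it stayed within 2-fold of mock. A count of 0 on day 1 allows up to 3.69 normalised reads, the worth of 3 reads in that library.

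Type IV chains Col4a1 and Col4a2 lay below mock by 2-fold or more on days 1, 4 and 5, though the day 5 count of 2 in 28 is close to the share of all genes and depends on the pseudocount. Col4a1, which pairs with Col4a2 in nearly all basement membranes, had 185 normalised reads in mock and 77.5, 368, 23.3, 75.9 and 571 on days 1, 3, 4, 5 and 7. Col4a2 had 77.4 in mock and 16.0, 125, 16.8, 28.1 and 188 on the same days. For both, the libraries ran from day 7 as the highest through day 3 to mock. On day 7 over mock the ratios were 3.08-fold for Col4a1 (1.39 to 1.86 on the log2 scale) and 2.42-fold for Col4a2 (0.90 to 1.66). On day 3 over mock they were 1.99-fold for Col4a1 (0.75 to 1.24) and 1.61-fold for Col4a2 (0.30 to 1.09), short of 2-fold.

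The other type IV chains are known from restricted basement membranes such as those of the kidney. Col4a3 had 11.5 normalised reads in mock and 9.85, 4.23, 10.4, 4.16 and 30.4 on days 1, 3, 4, 5 and 7. Col4a5 had 16.2 in mock and 8.61, 7.04, 5.18, 1.04 and 18.6 on these days. Both had their highest value on day 7 and lay below mock on day 3, unlike Col4a1 and Col4a2. With 17.8 added to each value, neither was past 2-fold against mock, though their low values lie further apart without it.

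Among fibril-associated collagens, which sit on the surface of fibrils, Col14a1 dominated. It had 286 normalised reads in mock and 38.1, 721, 299, 337 and 381 on days 1, 3, 4, 5 and 7. Day 1 was its low and day 3 its high, and the other 4 libraries lay close together. On day 4 its ratio to mock was 1.04-fold (-0.19 to 0.31 on the log2 scale), on the day when Col1a1 stood at 0.198-fold (-2.97 to -1.76). Col14a1 was not among the 9 collagens below mock on day 4.

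The remaining fibril-associated chains were low. Col12a1, a fibril-bridging chain of connective tissue under tension, had 17.2 normalised reads in mock and 22.2, 49.3, 24.6, 21.8 and 29.6 on days 1, 3, 4, 5 and 7. Col16a1 had 11.5 in mock and 0, 36.6, 3.88, 5.20 and 28.7 on these days. Both were highest on day 3 and fell short of 2-fold against mock on the scale used.
Col20a1 had 12.4 normalised reads in mock and 18.5, 16.9, 40.1, 22.9 and 31.3 on days 1, 3, 4, 5 and 7, highest on day 4. Col9a3, a type IX chain best known from cartilage, had 8.59 in mock and 12.3, 3.52, 3.88, 18.7 and 26.2 on these days. Its highest library was day 7.

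The multiplexins Col15a1 and Col18a1 lie at basement membranes, and Col18a1 carries the endostatin fragment. Col15a1 had 28.6 normalised reads in mock and 13.5, 70.4, 32.3, 33.3 and 93.8 on days 1, 3, 4, 5 and 7. Col18a1 had 24.8 in mock and 12.3, 38.7, 18.1, 5.20 and 38.9 on these days. With 17.8 added to each value, only the day 7 ratio of Col15a1 passed 2-fold against mock. Without that addition it was 3.27-fold (1.12 to 2.34 on the log2 scale). Other values then also lie more than 2-fold from mock, such as Col15a1 on day 3 and Col18a1 on day 5.

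Col8a1, a short-chain collagen found in vessel walls and repair tissue, was high in 1 library only. It had 12.4 normalised reads in mock and 7.38, 114, 3.88, 3.12 and 11.8 on days 1, 3, 4, 5 and 7. On day 3 over mock the ratio was 9.19-fold (2.39 to 4.14 on the log2 scale), and on day 7 over mock it was 0.952-fold (-1.27 to 1.14). Unlike the type I chains, it was back at the mock level on day 7.

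None of the membrane-spanning collagens counted was highest on day 3 or day 7, though Col25a1 and Col17a1 lay above mock on day 7. Col23a1 had 42.0 normalised reads in mock and 24.6, 17.6, 15.5, 15.6 and 18.6 on days 1, 3, 4, 5 and 7, the only collagen counted whose highest library was mock. Col25a1 had 11.5 in mock and 13.5, 11.3, 24.6, 5.20 and 21.1 on these days. Col17a1, of the hemidesmosomes that fix epithelium to its basement membrane, had 4.77 in mock and 11.1, 4.93, 6.47, 21.8 and 16.0. None of these 3 passed 2-fold against mock with 17.8 added to each value, which understates the ratios of such low genes. Col7a1, which forms the anchoring fibrils of skin, had 8.59 in mock and 3.69, 9.16, 5.18, 5.20 and 24.5 on days 1, 3, 4, 5 and 7. On the same scale it stayed within 2-fold, though without the addition day 7 was 2.85-fold over mock (0.39 to 2.77 on the log2 scale).

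The other 16 collagens had between 8 and 47 reads over all 6 libraries, and their largest single value was 24.5 normalised reads, for Col8a2 on day 7. They are Col28a1, Col26a1, Col4a4, Col4a6, Col6a4, Col6a5, Col19a1, Col22a1, Col9a1, Col9a2, Col24a1, Col11a2, Col2a1, Col13a1, Col8a2 and Col10a1, and no difference between libraries is reported for them. Col2a1 and Col10a1, both best known from cartilage, had at most 3.38 and 2.08 normalised reads in any library. Of the 44 collagens, 12 had 0 reads in at least 1 library, 10 of them in this low group.

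Divided by the length in kilobases of the longest protein-coding transcript in GENCODE M21, levels can be set between genes. On this scale the levels in mock were 172 normalised reads per kilobase for Col3a1, 55.0 for Col1a2, 44.4 for Col14a1, 36.8 for Col6a1 and 30.9 for Col1a1. Day 3 was led by Col3a1 at 1326, Col1a2 at 509.5, Col1a1 at 424, Col14a1 at 112 and Col6a1 at 107. Type III and type I chains thus headed the list on day 3. On day 7 the levels were 619 for Col3a1, 196 for Col6a1, 189 for Col1a2, 150.5 for Col6a2 and 122 for Col1a1, so Col6a1 ranked above both type I chains.

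The direct comparison of day 7 with day 3, added after the values had been seen, separated the class sums. Fibrillar genes summed to 5802 normalised reads on day 7 and 13538 on day 3, a ratio of 0.429 (0.417 to 0.441). Type VI genes summed to 1659 on day 7 and 959 on day 3, a ratio of 1.73 (1.61 to 1.85). Type IV genes summed to 822 on day 7 and 511 on day 3, a ratio of 1.61 (1.46 to 1.77). Fibrillar totals were therefore lower on day 7 than on day 3 while type VI and type IV totals were higher, beyond counting error. The fibrillar total is mostly Col1a1, Col1a2 and Col3a1, which summed to 12613 on day 3 and 5174 on day 7. Of the 8 fibrillar chains counted, 5 were lower on day 7 than on day 3 and 3 were higher.

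At the level of single genes, 2 of 28 collagens were at least 2-fold higher on day 7 than on day 3, against 9.08% of all genes, and 5 were lower, against 14.6%. Both counts are close to the shares of all genes. With equal column totals these counts became 6 and 3. The 5 lower ones were Col1a1, with a log2 ratio of -1.78, Col1a2 with -1.42, Col3a1 with -1.10, Col5a1 with -1.22 and Col8a1 with -2.16. The 2 higher ones were low genes, Col4a3 with 1.13 and Col9a3 with 1.05. Col6a1, Col6a2, Col5a3 and Col4a1 were higher by less, with log2 ratios of 0.85, 0.86, 0.84 and 0.61.

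**Figure D3:**
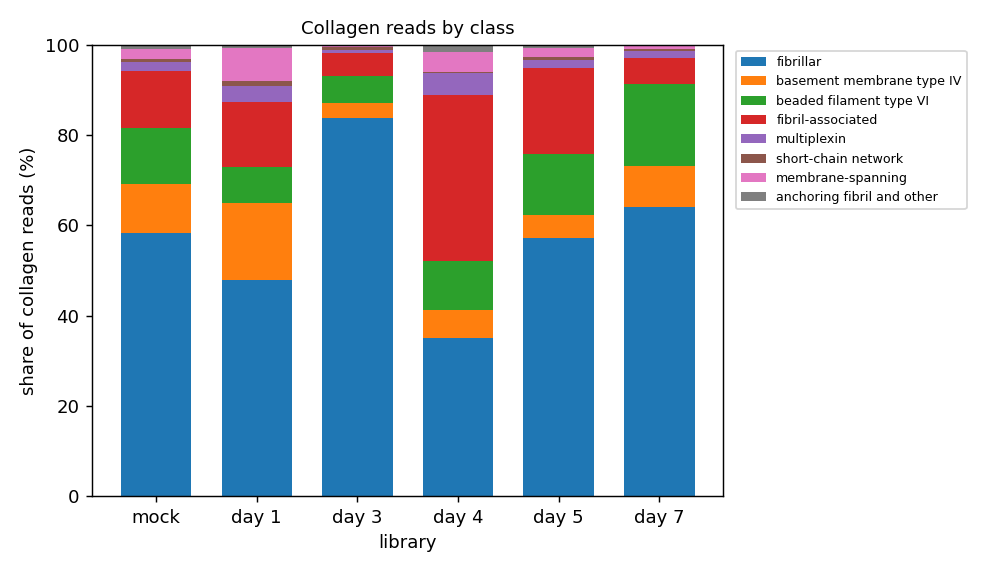
Share of all collagen reads (%) held by each of 8 classes in each library, as stacked bars, for mock and days 1, 3, 4, 5 and 7. Fibrillar chains take 35.1% on day 4, where fibril-associated chains, mostly Col14a1, take 36.9%, against 83.9% fibrillar on day 3.

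The make-up of the collagen reads differed between libraries. Fibrillar chains took 58.4% (56.6 to 60.2) of collagen reads in mock and 47.8% (43.7 to 51.9), 83.9% (83.4 to 84.3), 35.1% (31.9 to 38.4), 57.2% (55.1 to 59.3) and 64.0% (63.1 to 64.9) on days 1, 3, 4, 5 and 7. They were the largest class in every library but day 4. Type VI chains took 12.5% in mock and 8.02%, 5.94%, 10.7%, 13.5% and 18.3% on days 1, 3, 4, 5 and 7, with the highest share on day 7. Type IV chains took 10.7% in mock and 17.1%, 3.16%, 6.25%, 5.03% and 9.06%, with the highest share on day 1. Fibril-associated chains took 12.7% in mock and 14.3%, 5.20%, 36.9%, 19.2% and 5.76% on the same days.

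Read ratios between chains of the same molecule differed between libraries for types I and V and for Col6a3 against Col6a1, but not beyond counting error for Col6a1 against Col6a2. Within a library the ratio of reads needs no scaling factor, though it is not corrected for transcript length. Col1a1 to Col1a2 was 0.623 (0.518 to 0.749) in mock and 0.686, 0.922 (0.880 to 0.965), 0.651, 0.553 and 0.714 (0.653 to 0.780) on days 1, 3, 4, 5 and 7. The day 3 interval lies above those of mock, day 5 and day 7, while the intervals of days 1 and 4 are wide and include it. Col3a1 to Col1a1 was 5.23 (4.48 to 6.13) in mock and 3.97 (2.72 to 5.93), 2.94 (2.83 to 3.05), 5.29, 5.55 and 4.77 (4.43 to 5.14) on these days. The day 3 interval lies below those of mock and days 4, 5 and 7 and within that of day 1, so days 3 and 1 were not told apart.

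Within type V, Col5a3 to Col5a1 was 0.286 (0.174 to 0.454) in mock and 0.889, 0.150 (0.123 to 0.182), 0.125, 0.261 and 0.708 (0.588 to 0.851) on days 1, 3, 4, 5 and 7. Day 7 lay above both day 3 and mock by more than counting error. Within type VI, Col6a1 to Col6a2 was 1.06 in mock and 2.11, 1.16, 1.46, 1.09 and 1.15 on these days, and all 6 intervals overlap. Col6a3 to Col6a1 was 0.139 (0.115 to 0.166) on day 7, against 0.265 (0.222 to 0.315) on day 3. Within type IV, Col4a1 to Col4a2 was 2.40 (1.84 to 3.14) in mock and 4.85, 2.95, 1.38, 2.70 and 3.05 on days 1, 3, 4, 5 and 7, and each interval overlaps that of mock. Across classes, Col14a1 to Col1a1 was 1.56 in mock and 0.886, 0.287, 8.25 (5.56 to 12.7), 2.49 and 0.528 on days 1, 3, 4, 5 and 7.

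**Figure D4:**
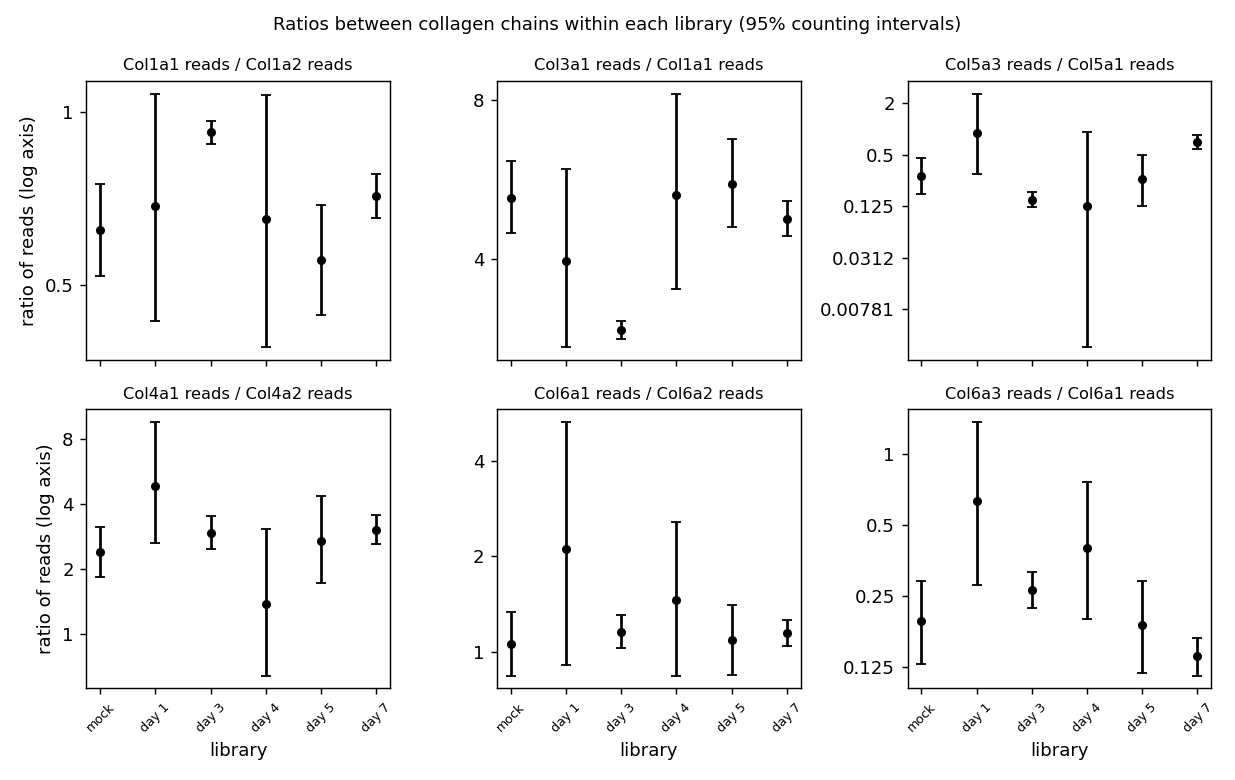
Ratio of reads (log axis) between collagen chains in each library, mock and days 1, 3, 4, 5 and 7, with 95% Clopper-Pearson intervals as bars. Col1a1 to Col1a2 is highest on day 3 at 0.922, and Col5a3 to Col5a1 is 0.708 on day 7 against 0.150 on day 3.

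Courses were compared by the root mean square difference of centred log2 values over the 6 libraries. The collagens most like Col1a1 were Col1a2 at 0.20, Col3a1 at 0.31 and Col5a1 at 0.39. Every collagen with at least 60 reads was ranked, whereas other genes below a mean of 74.1 normalised reads were not searched. The 8 nearest other genes with a mean of at least 74.1 normalised reads were Serpinh1, a collagen chaperone, at 0.54, Fbln2 at 0.63, Sparc, a collagen-binding matrix protein, at 0.66, Ccdc80 at 0.67, Fstl1 at 0.71, Kdelr3, a retrieval receptor of the endoplasmic reticulum, at 0.82, Kif18b, a mitotic kinesin, at 0.83 and Postn at 0.83. Serpinh1 had 123 normalised reads in mock and 51.7, 961, 27.2, 70.7 and 302 on days 1, 3, 4, 5 and 7, the order of Col1a1 with days 1 and 4 lowest. For Col4a1 the nearest collagens were Col5a3 at 0.36 and Col4a2 at 0.44. Its 8 nearest other genes were Igfbp3 at 0.35, Crispld2 at 0.42, Muc1, an epithelial mucin, at 0.45, Plat, the tissue plasminogen activator, at 0.50, Ptger3 at 0.53, Ccdc80 at 0.53, Islr at 0.57 and Cdh1, the epithelial cadherin, at 0.58. The 8 nearest other genes of Col1a1 and of Col4a1 share only Ccdc80.

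The enzymes and partners of collagen were read from lists, beside 3.77% of all genes higher and 5.82% lower on day 3 and 2.85% higher and 5.47% lower on day 7, each against mock. Of 19 hydroxylases, chaperones and glycosyltransferases, 5 were at least 2-fold higher and 1 lower on day 3, and 2 were higher and 0 lower on day 7. Serpinh1 led with a log2 ratio of 2.80 on day 3. Fkbp10, a prolyl isomerase of collagen folding, had 32.5 normalised reads in mock and 1.23, 185, 5.18, 27.0 and 54.1 on days 1, 3, 4, 5 and 7. Plod2, a lysyl hydroxylase that sets cross-link type, had 18.1 in mock and 6.15, 79.6, 5.18, 19.8 and 38.0. Both had the day 3 high of the fibrillar chains. P3h2, a prolyl 3-hydroxylase, differed from them, with 175 in mock and 7.38, 14.1, 225, 272 and 306 on these days.

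Of 8 procollagen proteinases and cross-linking enzymes, 5 were at least 2-fold higher on day 3 and 5 on day 7, and 0 were lower on either day. Lox, which starts covalent cross-links, had 27.7 normalised reads in mock and 1.23, 322, 12.9, 13.5 and 65.0 on days 1, 3, 4, 5 and 7. Adamts2, which removes the amino-terminal propeptide, had 24.8 in mock and 8.61, 114, 22.0, 28.1 and 123. Bmp1, which removes the carboxy-terminal propeptide, had 34.4 in mock and 17.2, 120.4, 20.7, 46.8 and 103. Lox was highest on day 3 and Adamts2 was about level between days 3 and 7. Loxl1, a related oxidase, had 15.3 in mock and 8.61, 146, 12.9, 4.16 and 81.9.

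Of 13 fibril-regulating matrix proteins, 8 were at least 2-fold higher and 0 lower on day 3, and 5 were higher and 1 lower on day 7. Sparc had 1178 normalised reads in mock and 230.1, 6528, 452, 661 and 1688 on days 1, 3, 4, 5 and 7. Bgn, a small proteoglycan of fibrils, had 79.3 in mock and 13.5, 692, 90.6, 68.6 and 215. Postn and Aspn were also among those named, with log2 ratios of 3.35 and 2.29 on day 3. The median log2 ratio of the list was 1.41 on day 3 and 0.83 on day 7, against 0.04 and -0.05 over all genes.

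The basement membrane partners had their high on day 7, as the type IV chains did. Of 8 partners, 1 was at least 2-fold higher on day 3 and 5 on day 7, and 0 were lower on either day. Nid1, which links laminin to type IV collagen, had 142 normalised reads in mock and 20.9, 177, 22.0, 104 and 764 on days 1, 3, 4, 5 and 7. The laminin β1 chain gene Lamb1 had 36.3 in mock and 17.2, 57.0, 11.6, 31.2 and 236. The laminin γ1 chain gene Lamc1 had 176 in mock and 175, 377, 252, 215 and 438. All 3 were highest on day 7, and Lamc1 alone was past 2-fold on day 3. Lama4, a laminin of vessels, had 40.1 in mock and 11.1, 74.7, 20.7, 16.6 and 119.9. Nid2 had 293 in mock and 32.0, 192, 51.8, 77.0 and 297, level between day 7 and mock.

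Collagen degradation and uptake genes, several of them macrophage genes, split in both directions. Of 14, 3 were at least 2-fold higher and 3 lower on day 3, and 2 were higher and 4 lower on day 7. Mmp12, the macrophage elastase, had 1138 normalised reads in mock and 167, 146, 405, 251 and 682 on days 1, 3, 4, 5 and 7. Mmp13, a collagenase of rodents, had 247 in mock and 153, 54.2, 77.6, 212 and 58.3. Both were below mock in each of the 5 caerulein libraries. Timp1, an inhibitor of metalloproteinases, had 213 in mock and 418, 1311, 51.8, 9.36 and 18.6. Ctsk, a lysosomal collagen-cleaving protease, had 43.0 in mock and 231, 169.7, 99.6, 29.1 and 60.8. Timp1 and Ctsk were thus highest early, on days 3 and 1.

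Of 7 collagen receptors, 0 were at least 2-fold higher and 1 was lower on day 3, and 3 were higher and 0 lower on day 7. Itga2, the α2 integrin chain, had 50.6 normalised reads in mock and 11.1, 9.86, 36.2, 19.8 and 71.8 on days 1, 3, 4, 5 and 7. Itga1, the α1 integrin chain, had 72.6 in mock and 67.7, 28.2, 24.6, 25.0 and 95.4. The collagen-binding kinase gene Ddr2 had 33.4 in mock and 17.2, 73.2, 12.9, 19.8 and 96.3, and Ddr1 had 29.6 in mock and 14.8, 73.2, 45.3, 18.7 and 91.2. All 4 were highest on day 7.

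The cells that usually make fibrillar collagen were read through markers. As a sum these were lowest on day 1 and highest on day 3, as the collagen sum was. The 12 fibroblast and stellate markers, chosen without collagens but sharing Dcn, Lum, Dpt, Postn and Loxl1 with the lists above, had reads in every library. They summed to 1957 normalised reads in mock and 409, 4057, 657, 1043 and 3734 on days 1, 3, 4, 5 and 7. Fibrillar collagen per unit of this sum was 0.835 in mock and 0.843, 3.34, 0.575, 1.20 and 1.55 on these days. It was thus highest on day 3, when the marker sum itself was near that of day 7. Dcn was the largest marker in every library, with 1268 of the sum in mock, 1408 on day 3 and 2268 on day 7. The ratio therefore leans on Dcn and is no measure of collagen per cell. Type VI collagen per unit of the sum was 0.179 in mock and 0.142, 0.236, 0.175, 0.284 and 0.444, and type IV was 0.153 in mock and 0.301, 0.126, 0.102, 0.106 and 0.220. Of the 12 markers, 5 were at least 2-fold above mock on day 3 (3.77% of all genes) and 0 below it (5.82%). On day 7 these counts were 5 (2.85%) and 1 (5.47%). By sign alone, 11 lay above mock on day 3, while Thy1 lay below it, with 10.6 normalised reads against 30.6. The markers did not share 1 course. Acta2, smooth muscle actin of contractile fibroblasts and vessel walls, had 98.4 normalised reads in mock and 114, 443, 32.3, 7.28 and 25.3 on days 1, 3, 4, 5 and 7. Dcn had 1268 in mock and 133, 1408, 352, 695 and 2268 on these days.

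**Figure D5:**
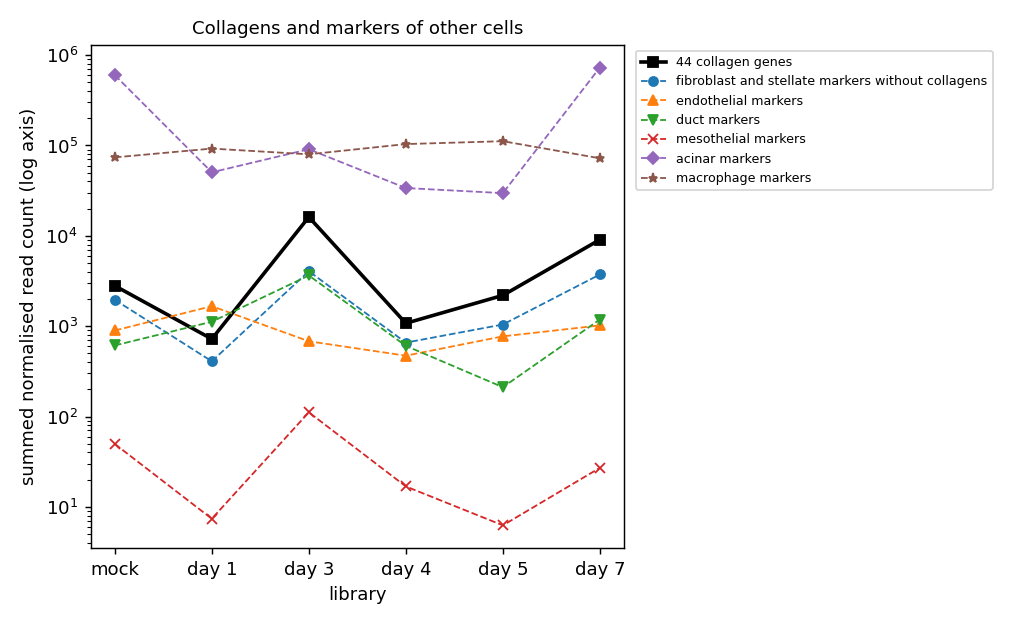
Summed normalised reads (log axis) of the collagen genes and of marker lists for other cell types in each library, mock and days 1, 3, 4, 5 and 7. The collagen sum and the fibroblast and stellate sum are both lowest on day 1 and highest on day 3, whereas the macrophage sum lies between 72187 and 111561. Members of that sum differ more: Cd68 ranges from 54365 on day 1 to 12933 on day 7. Csf1r ranges from 11450 on day 1 to 44659 on day 5.

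Other lists resembled the collagen course in part. The 10 endothelial markers summed to 896 normalised reads in mock and 1665, 680.4, 471, 772 and 1019 on days 1, 3, 4, 5 and 7, with Cldn5 at 0 reads on days 1 and 4. Kdr alone gave 1320 of the day 1 sum, against 91.7 in mock. Of the 9 endothelial markers with at least 60 reads, 7 were below mock on day 1 and 2 above it. The 8 duct markers summed to 612 in mock and 1119.9, 3639, 606, 211 and 1185, and were highest on day 3, as the collagen sum was. The 5 mesothelial markers ran between 6.24 and 111 and were highest on day 3, with Lrrn4 and Wt1 at 0 on day 1 and Upk1b at 0 on days 4 and 5. The 7 rows of macrophage markers summed to 73851 in mock and 92421, 79834, 103675, 111561 and 72187. The part of fibroblasts, duct cells or mesothelium in the collagen values was not tested.

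The only fit with replication set the 5 caerulein libraries, as if replicates of each other, against the 1 mock library. In edgeR's quasi-likelihood test on the recovered reads with Benjamini-Hochberg adjustment, 0 of the 14106 genes, 0%, and 0 of the 28 collagens passed an adjusted p of 0.05. Without adjustment 102 genes and 0 collagens were under 0.05. DESeq2 called 2 genes and 0 collagens, and without adjustment 117 genes and 0 collagens. That contrast averages days on which the collagens were far above and far below mock, and says nothing of single days.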

How the data were processed

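RNA was taken from sorted pancreatic macrophages in Trizol and made into libraries with the NEBNext Ultra RNA kit, per the labels' protocols. The authors deposited a table of normalised counts per gene, used here as a signal, for 6 libraries, 1 per group. Every deposited value is a whole number of reads times 1 step per library (100% of values, within 0.01 reads), and the recovered factors equal median-of-ratios size factors. Per the submitters' processing notes, Bowtie 0.12.2 and mm8 belong to the processing, with no step stated for either. The counting tool, its annotation and its use of strand were not given in the sources used here. In RefSeq the starts of Col4a1 and Col4a2 share 22 transcribed bases, and reads there could have been counted for either gene. All 6 columns were matched to samples by their titles.

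Mock held 17598031 reads, and days 1, 3, 4, 5 and 7 held 16200131, 25726455, 14853084, 17905449 and 16358551. In normalised reads, 3 reads equal 2.11 to 3.88, depending on the library.

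Log2 ratios used a pseudocount of 17.8, which is 1 in 1000000 of the mean column total. Genes with at least 60 reads were counted at 2-fold. Clopper-Pearson intervals came from scipy 1.17.1. The recovered reads were also fitted with edgeR 4.0.16 and DESeq2 1.42.0, tested on simulated data first. Sequences and gene order came from RefSeq, GRCm38.p6.

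Collagens were described by class, with values in every library for up to 6 per class and any past 2-fold against mock. Each partner list was named by its 4 largest ratios on day 3. The day 7 values of Nid1 and Lamb1, and the values of Acta2, Dcn and Thy1, were added after they were seen. The collagens and all lists were chosen with earlier results of these data known. Other pseudocounts, filters and scalings were tried.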

Additional observations from a re-analysis of the deposited data

How the results depend on the processing

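Of 102 collagen ratios past 2-fold, 70 stayed past it with the pseudocount 4 times as large and 100 with equal column totals. All 102 stayed past it with TMM library sizes or centring on the median gene, and 0 changed sign in any setting. A change of pseudocount cannot turn a sign. All 102 also stayed past 2-fold with a smaller pseudocount of 4.44 and with no filter. Those outcomes were fixed in advance, since a smaller pseudocount only widens a ratio and the filter does not enter it. Equal column totals moved the median of all genes on day 7 against mock to 0.19, against -0.05, and on day 7 against day 3 to 0.27, against -0.06. The counts of collagens at 2-fold moved as follows, and the cause was not tested except where the setting keeps fewer genes. With the smaller pseudocount, day 3 had 1 lower than mock and 1 lower than day 1, day 4 had 2 higher than mock and 1 higher than day 3, day 5 had 1 higher and 6 lower than mock and 4 lower than day 4, and day 7 had 19 higher and 1 lower than mock and 6 higher than day 3. With the larger pseudocount, day 4 had 5 lower than mock, day 5 had 0 lower than mock and 2 higher than day 4, and day 7 had 10 higher than day 5 and 0 higher than day 3. Among the 10000 genes with the highest mean, which keep 9 collagens, day 3 had 7 higher than mock and 9 higher than day 1, day 4 had 9 lower than day 3, and day 7 had 8 higher than day 5 and 0 higher than day 3. With equal column totals day 7 had 6 higher and 3 lower than day 3. Against the mean of days 1, 4 and 5 in place of mock, chosen after seeing the data and lowest in collagen reads, the day 3 log2 ratio of Col1a1 was 4.82 and that of Col6a1 2.40, and the day 7 ratios were 3.05 and 3.24. Leaving out each caerulein library in turn, edgeR called 0 to 0 collagens. Without a filter it called 0 genes, with 566 at an unadjusted p under 0.05, among them 1 collagen. No paired analysis was possible because each group is 1 library. With 1 pool per day, variation between animals and sorts is not measured, and collagens under about 60 reads in all allow no statement on differences.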
